A study of Mus musculus with 2 samples.

Results

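The genes described here are the 3 mouse Tribbles pseudokinase genes, Trib1, Trib2 and Trib3, and Cop1, which encodes a ubiquitin ligase, together 4 of the 21523 protein-coding genes used. They were named by symbol, and the group was chosen by a measured value, the 4 peaks of the transcription factor HLF in or near Trib1, so the presence of peaks at Trib1 is a description of the choice and not a finding. No test was run on any of the 4. The peaks come from chromatin immunoprecipitation sequencing (ChIP-seq), in which an antibody recovers a protein with the DNA it is bound to, and a peak is a stretch where recovered fragments pile up. One library came from C57BL/6 Lin-Sca-1+c-Kit+ cells (surface markers of the blood stem and progenitor compartment; the tissue is labelled blood and the age 8 to 10 weeks) infected with MigR1 3xFLAG-HLF/HLF, a retrovirus that carries FLAG-tagged HLF. The other came from cells given the MigR1 empty vector. Anti-FLAG antibody was used on both, and both were kept for 5 days with SCF, IL-7, Flt3L and IL-3. The peaks of the FLAG-HLF library (n = 1) were used, and the library of the empty vector (n = 1) is not analysed here. The protein was introduced by virus, so the peaks are those of a tagged, introduced HLF and not of the cells' own. A peak list gives no RNA levels, so neither the labelled cell type nor the activity of any gene could be checked from it. The list holds 3153 peaks, each 400 bp wide, with no height and no read count, so the depth is unknown.

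Tribbles proteins have the fold of a kinase but little or no kinase activity, and act as scaffolds. TRIB1 and TRIB2 bind COP1 through a short motif in their tail and bring it to C/EBP-alpha, a transcription factor needed for granulocyte formation, which is then ubiquitinated and degraded. Overexpression of either gene blocks myeloid differentiation and causes acute myeloid leukaemia in mice. TRIB3 is better known as a gene induced by the stress factors ATF4 and CHOP.

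The 4 genes fell into 3 kinds. Trib1 held a dense group of peaks, Trib3 held a single peak just inside its start, and Trib2 and Cop1 had none within 100 kb. Thus 2 of the 4 genes carried a peak inside or up to 20 kb away, and the same number inside or up to 100 kb away. Of all protein-coding genes, 15.3% (14.8 to 15.8%, exact Clopper-Pearson 95% interval) carried one inside or up to 20 kb away. Inside or up to 100 kb away, the share was 36.9%. Such an interval covers at most counting error, and it treats genes as independent although neighbouring genes can share a peak. With Trib1 chosen for its peaks, nothing is read from the count of 2.

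**Figure D1:**
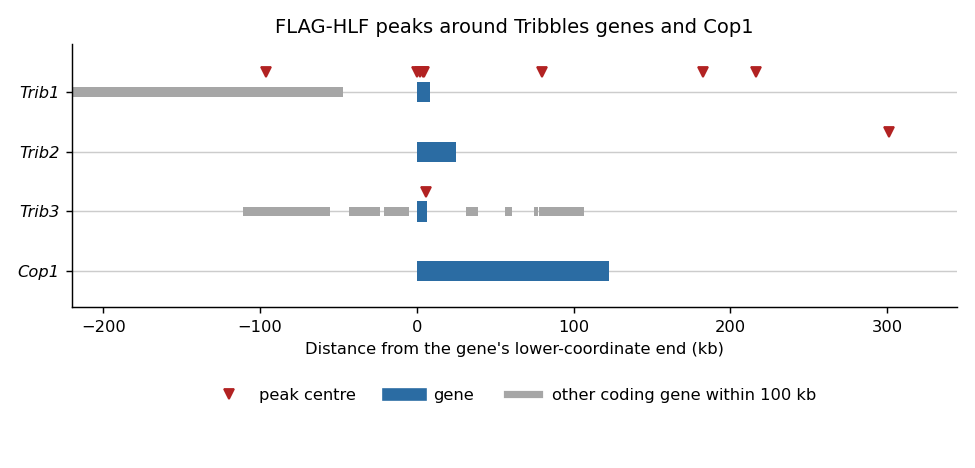
Peak centres (red triangles) around Trib1, Trib2, Trib3 and Cop1 (blue bars), with other protein-coding genes that lie within 100 kb of each in grey, plotted by distance in kb from the gene's lower-coordinate end. Peaks crowd at Trib1, with single peaks farther out, while 1 peak lies in Trib3 and the nearest peak to Trib2 is 276 kb from the gene; the nearest to Cop1, at 389 kb, is beyond the axis.

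Trib1 (gene ID 211770) spans 8.45 kb on chromosome 15, 59648654 to 59657099 (mm10). It had 3 peak centres in its body and 4 in the body or within 20 kb. In order along the chromosome, the first peak (59648348 to 59648747) was centred 107 bp outside the lower-coordinate end and reached into the gene. The other peaks, at 59650425 to 59650824, 59652187 to 59652586 and 59652819 to 59653218, were centred 1.97, 3.73 and 4.36 kb inside that end. The centres therefore ran from just outside the lower-coordinate end to 51.7% of the gene's length, and no peak centre lay in the rest of the gene. Successive centres were 2077, 1762 and 632 bp apart. The gene table gives neither exons nor, for this gene, the strand, so it was not settled which end is the 5′ end or whether the inner peaks lie in exons, introns or UTRs.

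**Figure D2:**
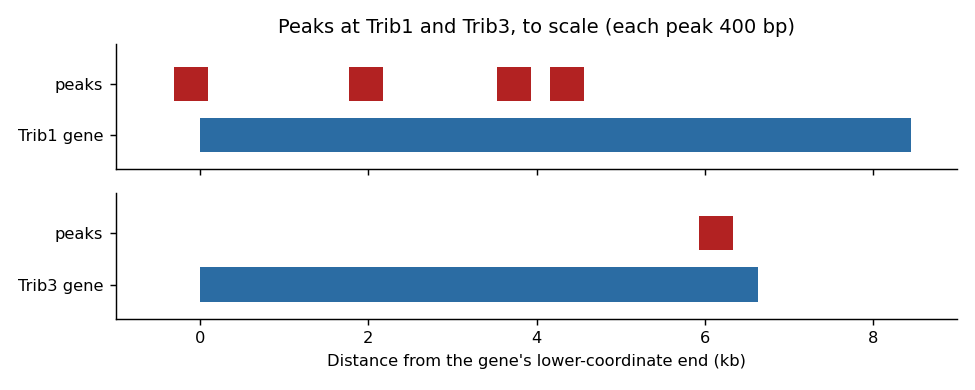
Peaks of 400 bp (red) drawn to scale against the Trib1 and Trib3 genes (blue), by distance in kb from the lower-coordinate end. At Trib1 the 4 peaks run from the lower-coordinate edge to the middle of the gene, and at Trib3 the single peak sits near the upper-coordinate end, which is the 5′ end.

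A further pair of peaks brought the count at Trib1 within 100 kb to 6. One (59728197 to 59728596) lay 71.3 kb beyond the upper-coordinate end in sequence with no protein-coding gene within 20 kb. The other (59552503 to 59552902) lay 96.0 kb below the gene, inside Nsmce2, which encodes a SUMO ligase of the SMC5/6 complex. That peak was just inside the 100 kb limit, and the first peak outside it was 174 kb beyond the upper-coordinate end, in the noncoding gene Gm36819. The peak nearest outside the 20 kb limit was the one at 71.3 kb.

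No other protein-coding gene shared the 4 inner peaks at 20 kb. Nsmce2, 46.9 to 51.3 kb from them, was the nearest other protein-coding gene and the only one within 100 kb of Trib1. By the nearest protein-coding gene, 5 of the 6 peaks went to Trib1 and 1 to Nsmce2. With noncoding genes and pseudogenes included, the pseudogene Gm20150 was nearer to the 71.3 kb peak, which left 4 peaks for Trib1. Within 1 Mb of the gene there were 14 peaks, on a chromosome that carried 154 peaks at 1.53 per Mb.

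Set beside all protein-coding genes, the Trib1 counts were near the top of each scale. Having 3 or more peaks in the body was seen in 0.181% of protein-coding genes (39 of 21523), 4 or more in the body or within 20 kb in 0.079% (17 genes), and 6 or more within 100 kb in 0.0883% (19 genes). Of the 19, 4 had more than 6 peaks, and the highest count was 9. Since the gene was chosen for its peaks, these shares describe where it stands and are not a test.

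**Figure D3:**
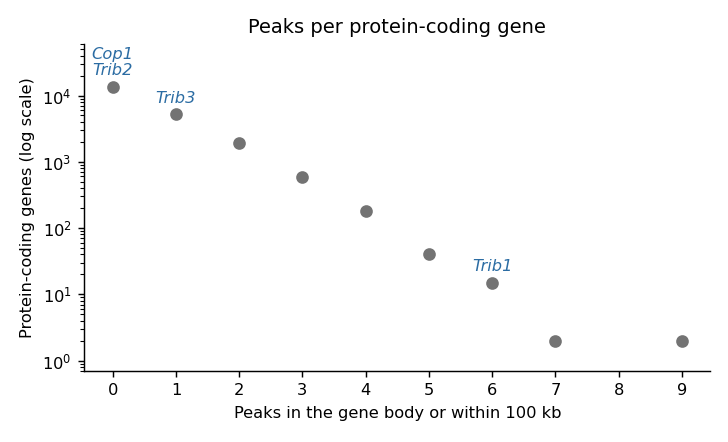
Number of protein-coding genes (log scale) by their number of peaks in the body or within 100 kb, with the 4 genes named at their counts. Trib2 and Cop1 stand with the 13576 genes that have 0 peaks, Trib3 with the 5226 that have 1, and Trib1 with the 15 that have 6.

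Trib1 was the shortest of the genes with 3 or more peaks in the body, but not of those with many peaks in wider windows. Of the 17 genes with 4 or more in the body or within 20 kb, 2 were no longer than Trib1, namely Trib1 itself and Irf2bp2, and of the 19 with 6 or more within 100 kb, 6 were no longer than Trib1, itself included. At least 1 peak in the body was seen in 2.78% of the genes with from 0.5 to 2 times the length of Trib1. Among the 6913 protein-coding genes no longer than Trib1, 73 had a peak in the body and 3 had 2 or more. Trib1 was the only one with 3 or more (0.0145% of them), though its body count was 2 with peaks within 1 kb merged. The shortest other gene with 3 or more was Cdc27, which encodes a subunit of the anaphase-promoting complex, at 48.1 kb. The median length of the 39 genes was 213 kb. No protein-coding gene matched the counts of Trib1 in the body, within 20 kb and within 100 kb at once. On the body and 20 kb counts alone (3 and 4), a comparison chosen after the values were seen, Cdc27, Lyrm4 and Baz2b matched it, and their lengths were 48.1, 139 and 311 kb.

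The spacing of these peaks, the same ones that led to the choice of Trib1, can also be given without gene boundaries, as a description that adds no separate support. Along each chromosome, 3093 runs of 4 successive peaks could be formed, and the median run spanned 1390 kb from first to last centre. The 4 peaks at Trib1 spanned 4471 bp, the shortest of all runs. The next shortest, in and around M1ap, a gene needed for meiosis in the male germ line, spanned 20.2 kb. Dok1 and Loxl3 also lay within 20 kb of that run. After it came a run beside Irf2bp2, which encodes a transcriptional corepressor, at 25.4 kb. This measure was also chosen after the peaks were seen. The rank counts the peaks 632 bp apart as separate. With peaks within 1 kb merged, 3 were left in or within 20 kb of Trib1. A run of 4 would then reach to a peak at least 71.3 kb from the gene. Other runs were not remeasured with merged peaks.

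**Figure D4:**
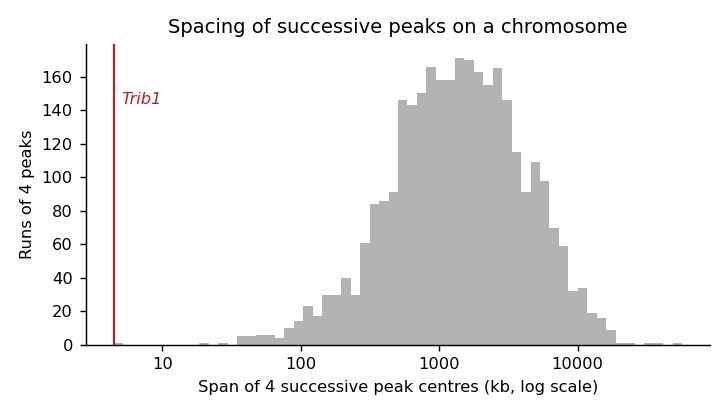
Spans from the first to the last centre of every run of 4 successive peaks on a chromosome (kb, log scale), as a histogram of 3093 runs; runs overlap, so they are not independent. The red line marks the Trib1 run at 4.47 kb, left of the 20.2 kb of the next shortest.

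Trib3 (gene ID 228775) spans 6.64 kb on the minus strand of chromosome 2, 152337425 to 152344060. Its single peak (152343360 to 152343759) was centred in the body, 501 bp inside the 5′ end of the gene. There was no other peak within 200 kb. The next lay 392 kb away, in Id1, which encodes an inhibitor of bHLH factors. Rbck1, which encodes a subunit of the linear ubiquitin chain assembly complex, was the only other protein-coding gene within 20 kb of the Trib3 peak, at 10.9 kb, and 7 other protein-coding genes lay within 100 kb of Trib3. A peak in the body was seen in 6.94% of all protein-coding genes, and in 2.37% (1.99 to 2.79%) of the 5707 genes that have from 0.5 to 2 times the length of Trib3. Trib3 was listed with results known, so no test was made.

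The promoter of Trib3 is shown because the peak lies beside it: the 250 bases before the start, from RefSeq on GRCm38.p6 (the same chromosome coordinates as mm10). The peak edge lay 301 bases beyond this window, inside the gene, and no base of the window was under the peak. The promoters of Map2k7 and Meis1, whose peaks are described further on, are shown with it because a peak covers most of each, and the capitals mark the bases under the peak. Trib3 is at chr2:152344061-152344310 (minus strand), Map2k7 at chr8:4238490-4238739 (plus strand) and Meis1 at chr11:19018970-19019219 (minus strand), each written 5′ to 3′. The Meis1 window lies wholly within the gene's span in the gene table, before a start that is listed inside that span.
Trib3: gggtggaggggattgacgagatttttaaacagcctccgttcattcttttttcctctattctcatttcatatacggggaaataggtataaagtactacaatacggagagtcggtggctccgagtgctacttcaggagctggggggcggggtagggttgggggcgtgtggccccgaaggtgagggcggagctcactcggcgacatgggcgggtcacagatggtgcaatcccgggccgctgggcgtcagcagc
Map2k7: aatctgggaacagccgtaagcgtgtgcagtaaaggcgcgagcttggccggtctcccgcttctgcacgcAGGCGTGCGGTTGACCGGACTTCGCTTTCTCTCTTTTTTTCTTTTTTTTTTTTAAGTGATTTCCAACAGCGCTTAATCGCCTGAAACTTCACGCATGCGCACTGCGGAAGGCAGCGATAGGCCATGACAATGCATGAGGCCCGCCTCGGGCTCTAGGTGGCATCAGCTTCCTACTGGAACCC
Meis1: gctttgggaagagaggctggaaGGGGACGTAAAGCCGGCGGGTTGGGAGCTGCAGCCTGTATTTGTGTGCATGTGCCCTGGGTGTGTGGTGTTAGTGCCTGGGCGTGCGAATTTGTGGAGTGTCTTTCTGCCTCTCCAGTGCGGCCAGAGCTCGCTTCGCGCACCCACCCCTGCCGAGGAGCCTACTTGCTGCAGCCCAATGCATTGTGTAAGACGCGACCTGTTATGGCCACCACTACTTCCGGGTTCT

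The peak covered 182 of the 250 bases at Map2k7 and 228 of the 250 at Meis1. PAR bZIP factors such as HLF recognise palindrome-like sites around TTACGTAA, and C/EBP proteins related ones. Windows of 300 bases (250 before to 50 after the start) were searched on both strands for TTACGTAA, TTATGTAA, TTATGCAA and TTGCGCAA. None of these motifs was found in the windows of Trib2, Trib3 and Cop1, nor in those of Map2k7 and Meis1. The windows held no base of the Trib3 peak and only part of the Map2k7 and Meis1 peaks. Whether the rest of those peaks holds a motif was therefore not examined. Of 32851 promoter windows in the table, 1.95% held at least 1 of the 4 motifs. The share was 15% of the 227 windows that a peak overlapped (34 windows) and 1.85% of the others. Windows of one gene or of neighbouring genes can overlap each other, so these shares are a description with no test. TTATGCAA was held by 0.743% of all windows, TTATGTAA by 0.938%, TTGCGCAA by 0.183% and TTACGTAA by 0.119%. Of the 227 windows with a peak, TTATGCAA was in 15 (6.61%), TTATGTAA in 14 (6.17%) and TTGCGCAA in 6 (2.64%). TTACGTAA itself was in 1 (0.441%). Of the other windows, these motifs were in 0.702%, 0.901%, 0.166% and 0.116%, in the same order. The windows differed in base composition: the 250 bases before the start were 57.2% G and C at Trib3, 73.6% at Trib2 and 65.6% at Cop1.

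Trib2 (gene ID 217410; chromosome 12, 15791725 to 15816962, minus strand), the paralogue that shares with Trib1 the ability to degrade C/EBP-alpha, had 0 peaks in its body, within 20 kb, within 100 kb and within 200 kb. Its nearest peak (16092664 to 16093063) lay 276 kb beyond its 5′ end, and there were 2 peaks within 1 Mb of the gene. A distance this long or longer was seen for 39.6% of all protein-coding genes, so such a distance was common. Among genes with from 0.5 to 2 times its length, 6.37% had a peak in the body, 15.9% in it or up to 20 kb away and 40.1% in it or up to 100 kb away. No other protein-coding gene lay within 100 kb of Trib2.

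Cop1 (gene ID 26374; chromosome 1, 159232156 to 159354872, plus strand), which encodes the ligase itself, also had 0 peaks in its body and within 20, 100 and 200 kb. It is the longest of the 4 at 123 kb. Among the 3327 protein-coding genes with from 0.5 to 2 times that length, 17.4% had a peak in the body, 24% (22.6 to 25.5%) in it or up to 20 kb away and 42.3% in it or up to 100 kb away. The nearest peak, 389 kb beyond the 3′ end, lay inside Tnr, which encodes tenascin-R of the extracellular matrix. Of all protein-coding genes, 31.9% had their nearest peak at least as far away. Within 1 Mb on either side of Cop1 there were 3 peaks. The same window held 14 for Trib1, which include the 4 it was chosen for, 7 for Trib3 and 2 for Trib2. Peaks per Mb were 1.1 on chromosome 1 (Cop1), 1.53 on 15 (Trib1), 1.58 on 2 (Trib3) and 1.06 on 12 (Trib2).

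The pathway around these genes was described with 28 other genes in 5 roles, listed with earlier results of these data known. Of the 28, 9 (32.1%) carried a peak inside or up to 20 kb away and 13 (46.4%) inside or up to 100 kb away, beside 15.3% and 36.9% of all protein-coding genes. In the body, 3 of the 28 carried a peak, beside 6.94% of all protein-coding genes. The median distance of the 28 to the nearest peak was 115 kb, against 179 kb over all protein-coding genes. No test was made, and gene length and the number of neighbouring genes were not matched here.

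The protein that the Tribbles and COP1 complex degrades in myeloid cells, C/EBP-alpha, had no peak near its gene: the nearest to Cebpa was 135 kb away. Its paralogue gene Cebpb, which encodes a factor of emergency granulocyte formation, had 1 peak within 100 kb, at 39.5 kb and inside Tmem189. Of all protein-coding genes, 15.3% had a peak inside or up to 20 kb away and 6.94% had one in the body. The substrate genes were listed with earlier results known, so nothing is read from their counts. Among the 11 substrate genes, 4 had a peak within 20 kb and none in the body. These were genes of ETS factors, Etv1 at 1.77 kb, Ets2 at 7.96 kb and Etv4 at 9.99 kb, and Acaca, which encodes the acetyl-CoA carboxylase of fatty acid synthesis, at 12.1 kb. The Etv1 and Ets2 peaks lay within 20 kb of no other protein-coding gene, while the Etv4 peak lay inside Dhx8 and the Acaca peak inside Tada2a. Ets1, Etv5, Jun and Crtc2 had none within 100 kb, and Trp53 had 1 at 79.6 kb that lay inside Eif4a1.

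The ligase partners are subunits of the cullin complex in which COP1 works. Of these 6 genes, 2 had a peak within 20 kb, beside 15.3% of all protein-coding genes with one inside or that near. Dda1 had 1 at 7.92 kb, inside Ano8 and within 20 kb of 6 other protein-coding genes. Cul4a, a cullin scaffold gene, had 1 at 15.7 kb, inside Lamp1. Neither peak belongs by position to the ligase gene alone. Det1, Ddb1, Rbx1 and Cul4b had none within 100 kb.

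Tribbles proteins also bind kinases of the MAP kinase and AKT pathways. A peak inside or up to 20 kb away was carried by 15.3% of all protein-coding genes. Of the 5 kinase genes, Map2k7, which encodes a kinase of JNK, was the only one with a peak within 20 kb. That peak was centred 0.017 kb inside the gene's start and lay within 20 kb of 4 other protein-coding genes. Akt1 had 4 peaks within 100 kb, a count shared by 178 of the 21523 protein-coding genes, and none of them was within 20 kb. The nearest, at 24.2 kb, lay inside Adssl1. The next lay inside Inf2, at 54.5 kb, and within 20 kb of Inf2, at 72.5 kb. The farthest, at 85.5 kb, lay within 20 kb of Cep170b, Pld4 and Ahnak2. Each of these peaks was nearer to another protein-coding gene than to Akt1. Map2k1, Map2k4 and Akt2 had none within 100 kb. Stk40, a Tribbles-related pseudokinase gene, had 1 peak at 86.1 kb, within 20 kb of Csf3r, the G-CSF receptor gene.

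Among 5 genes of factors linked to Tribbles expression or to Tribbles leukaemia, Atf4 and Meis1 each had a peak in the body. Atf4 encodes the stress factor that induces Trib3, and its peak (chromosome 15, 80255913 to 80256312) was centred 0.928 kb from the nearer gene end, with 2 other protein-coding genes within 20 kb. Trib3 and Atf4 each held 1 peak in the body, where 6.94% of all protein-coding genes held at least 1. Ddit3, which encodes CHOP, had its nearest peak at 154 kb. A link between these genes was not tested. Meis1, which encodes a HOX partner linked to Trib2 in leukaemia, held its peak 0.654 kb inside a gene end and over most of the window printed above, which precedes a start inside the gene's span. Hoxa9, the usual partner gene of Meis1 in leukaemia, and E2f1 had their nearest peaks at 677 and 804 kb.

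**Figure D5:**
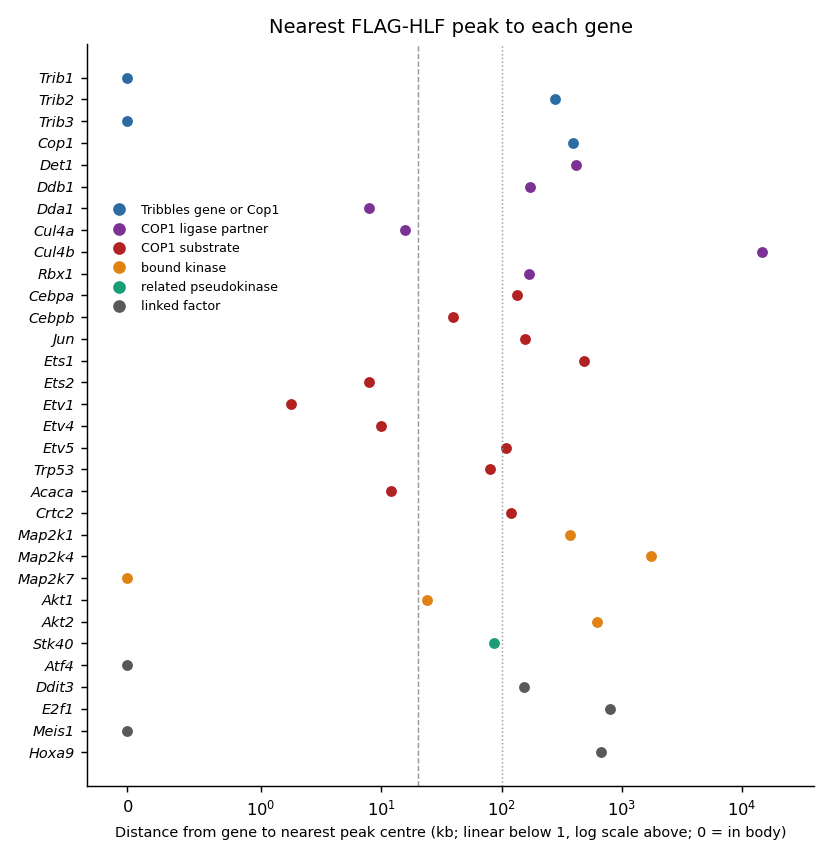
Distance in kb from each gene to its nearest peak centre (0 means in the body; linear below 1 kb, log scale above), for the 4 genes and 28 pathway genes, coloured by role. The dashed line is 20 kb and the dotted line 100 kb; Trib1, Trib3, Map2k7, Atf4 and Meis1 sit at 0, and Cul4b, on the X chromosome, is farthest.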

How the data were processed

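Per the file itself, the authors' deposited table for the FLAG-HLF library lists chromosome, start and end of each peak, with no header and no score or fold; its values are positions in bp. The submitters' processing notes name Bowtie2 2.0.6, MACS2 2.0.10 and mm10 without saying what each did. How peaks were thresholded, whether the control library entered the calling and how every width became 400 bp is not given in the sources used here. Intervals of 1 width do not show how far an enriched region reached.

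Gene positions came from a RefSeq table of GRCm38.p6: 49214 of its 49997 rows were used (chromosomes 1 to 19 and X, start of at least 3 Mb). A peak was placed by its centre (start + 200) and counted in the gene body and within 20 and 100 kb of its ends. Intervals given with shares are exact Clopper-Pearson 95% intervals, which treat genes as independent although neighbours can share a peak. Strand came from the RefSeq promoter table, which matched 3 of the 4 genes (Trib2, Trib3 and Cop1) and 25 of the 28 pathway genes. Counting was checked on simulated peaks. Python 3.11.15, numpy 2.4.6, pandas 2.3.3 and scipy 1.17.1 were used.

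The named genes were the 4 genes, the pathway lists, and the genes nearest to their peaks; the members and lists were chosen with earlier results of these data known. With 1 library there is no replicate. A peak score threshold and motifs inside peaks were planned and not run, since the list has no score and no genome sequence was used; the COP1-binding and MEK1-binding motifs and the identity of the Tribbles proteins were not analysed here either. The alternatives tried were other windows, any overlapping base, nearest-gene rules, merged peaks and other gene backgrounds.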

Additional observations from a re-analysis of the deposited data

How the results depend on the processing

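The count of genes with a peak stayed at 2 of 4 with windows of 5, 10, 50 and 200 kb, with any overlapping base, with peaks within 1 kb merged and by the nearest protein-coding or annotated gene. The 6 peaks of Trib1 within 100 kb became 5 by the nearest protein-coding gene or with merged peaks, 4 by the nearest annotated gene or a window of 50 kb, and 7 with 200 kb. In the Trib1 body the count of 3 became 4 with any overlapping base and 2 with merged peaks. The count of 4 in its body or within 20 kb became 3 with merged peaks. At 2 in the body, Trib1 would not be among the genes with 3 or more. Ranks among genes or runs were not recomputed with merged peaks. The count of 9 pathway genes within 20 kb was the same under 2 alternatives chosen after seeing the data. The background share with a body peak moved with gene length, at 2.37% for genes like Trib3 and 17.4% for genes like Cop1 against 6.94% over all, and was 3.78% over every annotated gene. Depth and peak height are unknown, so a missing peak does not show missing binding. No paired analysis was possible because only 1 library was analysed; leaving out a replicate could not be tried either. A stricter peak threshold and the motif alternatives inside peaks were not run.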
